A study of Mus musculus with 9 samples.

Results

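Gene expression was compared between cells sorted as retinal ganglion cells (RGCs) 3 days after optic nerve crush (ONC) and the same sort from uninjured retinas (Ctrl), with 3 libraries in each group and 6 of the 9 libraries of the series in all. The mice were wild type by their labels, of the C57BL/6J strain, of both sexes and 6 to 8 weeks old. The ONC mice received vehicle (PBS) into the eye immediately after the crush, whereas the controls are labelled as normal, so that the crush and the injection cannot be told apart. Retinas were dissociated and cells positive for CD90.2 and negative for CD48, CD15 and CD57 were sorted, and stranded mRNA libraries were made from their RNA. The remaining 3 libraries came from crushed eyes that received the zinc chelator TPEN, and they were not compared here. They entered the estimate of the spread between libraries and the means over 9 libraries that set which genes were tested or ranked. The quantile and median ratio alternatives also scaled them with the others. The sources used here do not state if each library came from its own mice, so the p-values measure the spread between these libraries.

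Optic nerve crush cuts the axons of RGCs while the rest of the retina stays in place. RGCs then switch on injury transcription factors, some growth genes and, in many cells, a death program, while microglia divide and take up debris, and astrocytes and Müller glia become reactive, with more intermediate filament proteins such as GFAP. Interferons signal through JAK kinases and STAT factors to a large set of antiviral and antigen-presenting genes, and rods and cones lie in the outer retina, away from the injured axons.

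The levels were RPKM, read numbers set to the exon length of each gene and to the total of each library, so that genes can be compared with each other, and RPM is the same without the length. The totals were 20077226 to 23109754 reads in Ctrl and 22967138 to 22986065 reads in ONC, and where no read was found the count allows up to 3, equal to 0.130 to 0.149 RPM, a floor that covers counting error only. The table held 15228 genes, and 2 or more of the 9 libraries exceeded 1 RPM in every one of them, and of these 663 had no Ctrl library above that level and 268 had no ONC library above it. Genes that rise from very little are therefore more likely to be in the table than genes that were low throughout. Differences were tested with limma on log2(RPKM + 0.1) in 13566 genes whose mean over the 9 libraries reached 0.5 RPKM, and the added 0.1 shrinks the fold change of low genes. The groups below are gene lists from general knowledge, and of each list it is said how many genes were in the table and how many passed this minimum. The part of a list that passed owes some of its members to their level after crush, so its counts describe these libraries. They are read beside the shares over all tested genes, which were 4.58% higher and 0.752% lower by 1.5-fold or more and 11.7% higher and 6.97% lower at any fold. Of the genes given with values below, Bcl2, Car14, Ccnd1, Cebpb, Cebpd, Col4a1, Col4a2, Csf1r, Cxcl16, Ddit3, Dleu7, Eps8l3, Fgf2, Fn1, Ftl1, Gas6, Glul, Hk1, Ifnar2, Irf3, Jak1, Jun, Junb, Lamp1, Meg3, Mir770, Mt2, Myd88, Nefl, Nefm, Neurod1, P2ry12, Pkm, Psme1, Slc6a9, Tyk2, Uchl1 and mt-Atp6 share exon positions with another gene of the table, so that their reads are uncertain.

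The sorted cells did not have the expression profile of pure RGCs. Gnat1, the rod transducin gene, ranked 2 of 15228 genes by mean RPKM over the 6 libraries. Among RGC markers, the neurofilament gene Nefl ranked 137 and the sorted surface antigen gene Thy1 (CD90) ranked 6798. The defining RGC genes were near the end of the table, with Rbpms at 13530, Pou4f1 at 14016 and the vesicular glutamate transporter gene Slc17a6 at 14108. Of 27 RGC markers, 23 were in the table and 17 were tested. The results are therefore given for the cells sorted as RGCs, a mixture in which the transcripts of rods were the most abundant. In such bulk samples, fewer cells of a type and less RNA per cell cannot be told apart.

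The summed levels of marker lists moved in different directions between the groups. The 22 microglia and macrophage markers in the table, of 24 listed, summed to 14.4 to 15.6 RPKM in Ctrl and 116 to 121 RPKM in ONC, a ratio of 7.97 between the group means. The sum of the 25 rod genes went the other way, from 30722 to 30964 RPKM in Ctrl to 27112 to 27307 RPKM in ONC, a ratio of 0.883. The ratios were 0.907 for bipolar cell markers, 0.996 for amacrine cell markers, 1.08 for RGC markers, 1.12 for Müller glia markers and 1.24 for astrocyte markers. The amacrine sums of the groups overlapped, and the sums of the other lists named here did not. The RGC, Müller glia and astrocyte sums did not move as whole lists. At any fold, these lists had 7, 7 and 3 higher and 2, 5 and 1 lower genes of 17, 20 and 7 tested. Gfap made up most of the astrocyte increase, from 84.1 to 104 RPKM. Apoe rose by more than the whole Müller glia sum, which went from 699 to 780 RPKM, while Glul fell. No T, B or NK cell marker of 22 listed was in the table, and of 20 monocyte and neutrophil markers only Csf3r, Itga4 and Mmp9 were.

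**Figure D1:**
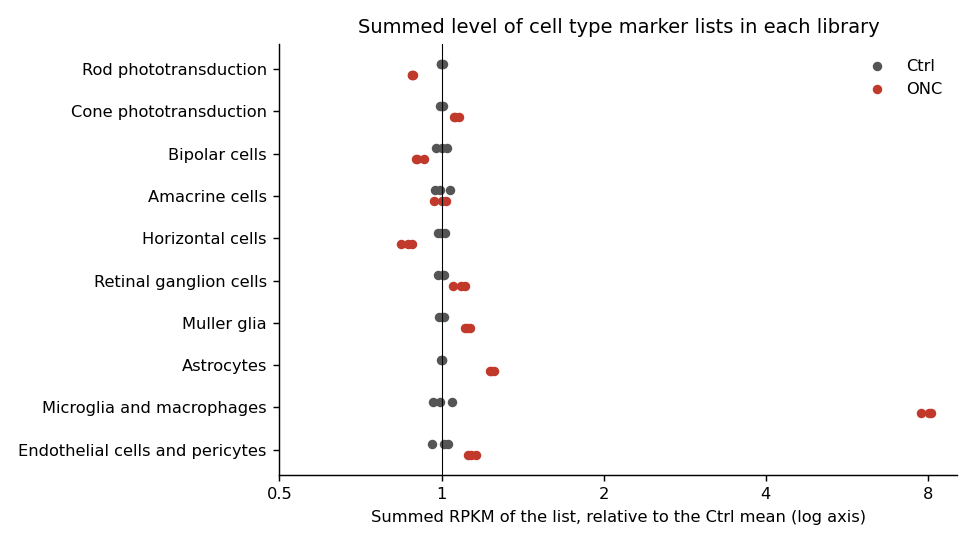
Summed RPKM of 10 cell type marker lists in each library, divided by the mean of the 3 Ctrl libraries (log axis; grey points, Ctrl; red points, ONC). The microglia and macrophage sums of the ONC libraries sit at 7.77 to 8.10 times the Ctrl mean, whereas the rod sums sit at 0.879 to 0.886 times it.

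After crush 622 genes (4.58% of those tested) were upregulated and 102 (0.752%) downregulated by 1.5-fold or more with an adjusted p under 0.05. At any fold, 1590 genes (11.7%) were higher and 946 (6.97%) were lower with an adjusted p under 0.05, and the median log2 fold change of all tested genes was 0.02. Upregulated genes were 85.9% of those past the fold of 1.5 and 62.7% of those at any fold, and after quantile normalization between libraries these shares were 73.3% and 46.7%. The 2 directions differed in size. The upregulated genes had a median fold of 2.20, with 149 genes changed at least 4-fold and 50 at least 8-fold, whereas the downregulated genes had a median fold of 1.63, with 8 genes changed at least 2-fold and the largest at 2.96-fold. Of the 102 downregulated genes, 67 to 77 stayed past both thresholds when a single library was left out.

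The Ctrl levels depended on the fold. Genes past 1.5-fold had a median Ctrl level of 1.05 RPKM where upregulated and of 2.52 RPKM where downregulated, against 5.02 RPKM for all tested genes. At any fold the medians were 6.52 RPKM for higher and 13.2 RPKM for lower genes. Of the upregulated genes, 187 of 622 had a Ctrl mean under the 0.5 RPKM minimum. The upregulated genes took 1.11% of the reads in each Ctrl library and 2.18% to 2.21% in each ONC library. Among the 408 genes at 100 RPKM and over, 27.2% were higher and 18.4% were lower at any fold, but 9 rose and 1 fell by 1.5-fold or more. By the GENCODE vM21 gene types of matching symbols, 86.3% of the upregulated genes were protein coding, as were 83.7% of all tested genes, against 55.1% of the downregulated genes. The libraries of the groups did not overlap for 20.7% of tested genes in the higher direction and 15.8% in the lower direction. Among called genes they did not overlap for 620 of 622 upregulated and 102 of 102 downregulated genes. At any fold they did not overlap for 1583 of 1590 higher and 940 of 946 lower genes. For a called gene, the lack of overlap stated below is therefore no further support.

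**Figure D2:**
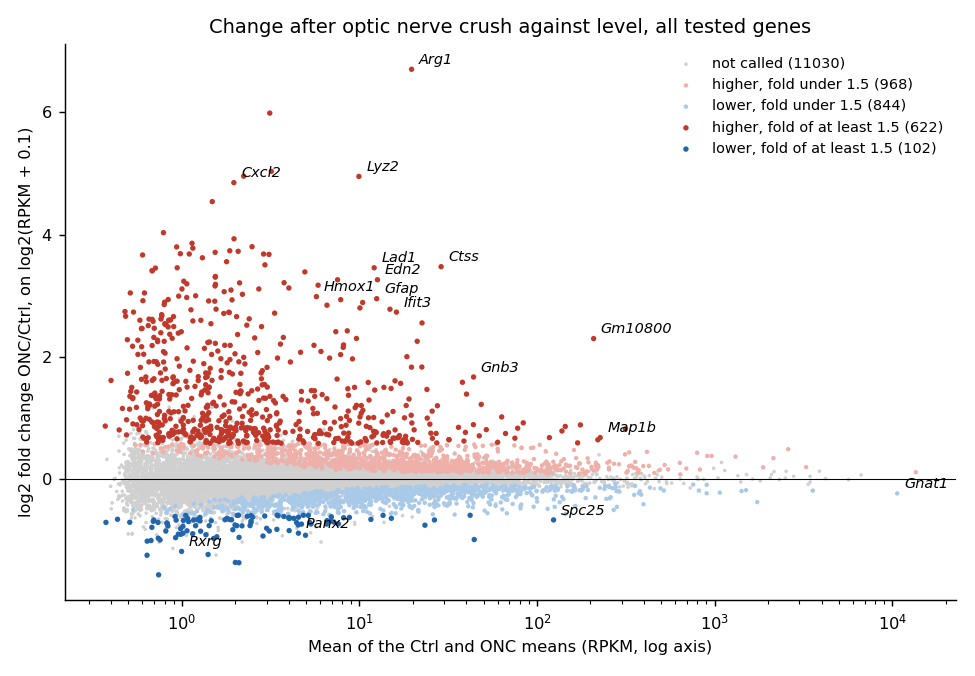
Each point is 1 of 13566 tested genes, with the mean of the Ctrl and ONC means (RPKM, log axis) against the log2 fold change ONC/Ctrl on the log2(RPKM + 0.1) scale. Red and blue points passed an adjusted p of 0.05 and a fold of 1.5 (622 higher, 102 lower), and pale points passed the adjusted p at smaller folds. The large increases lie among genes of low and middle level, and the most abundant genes, such as Gnat1, changed by small amounts.

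**Figure D3:**
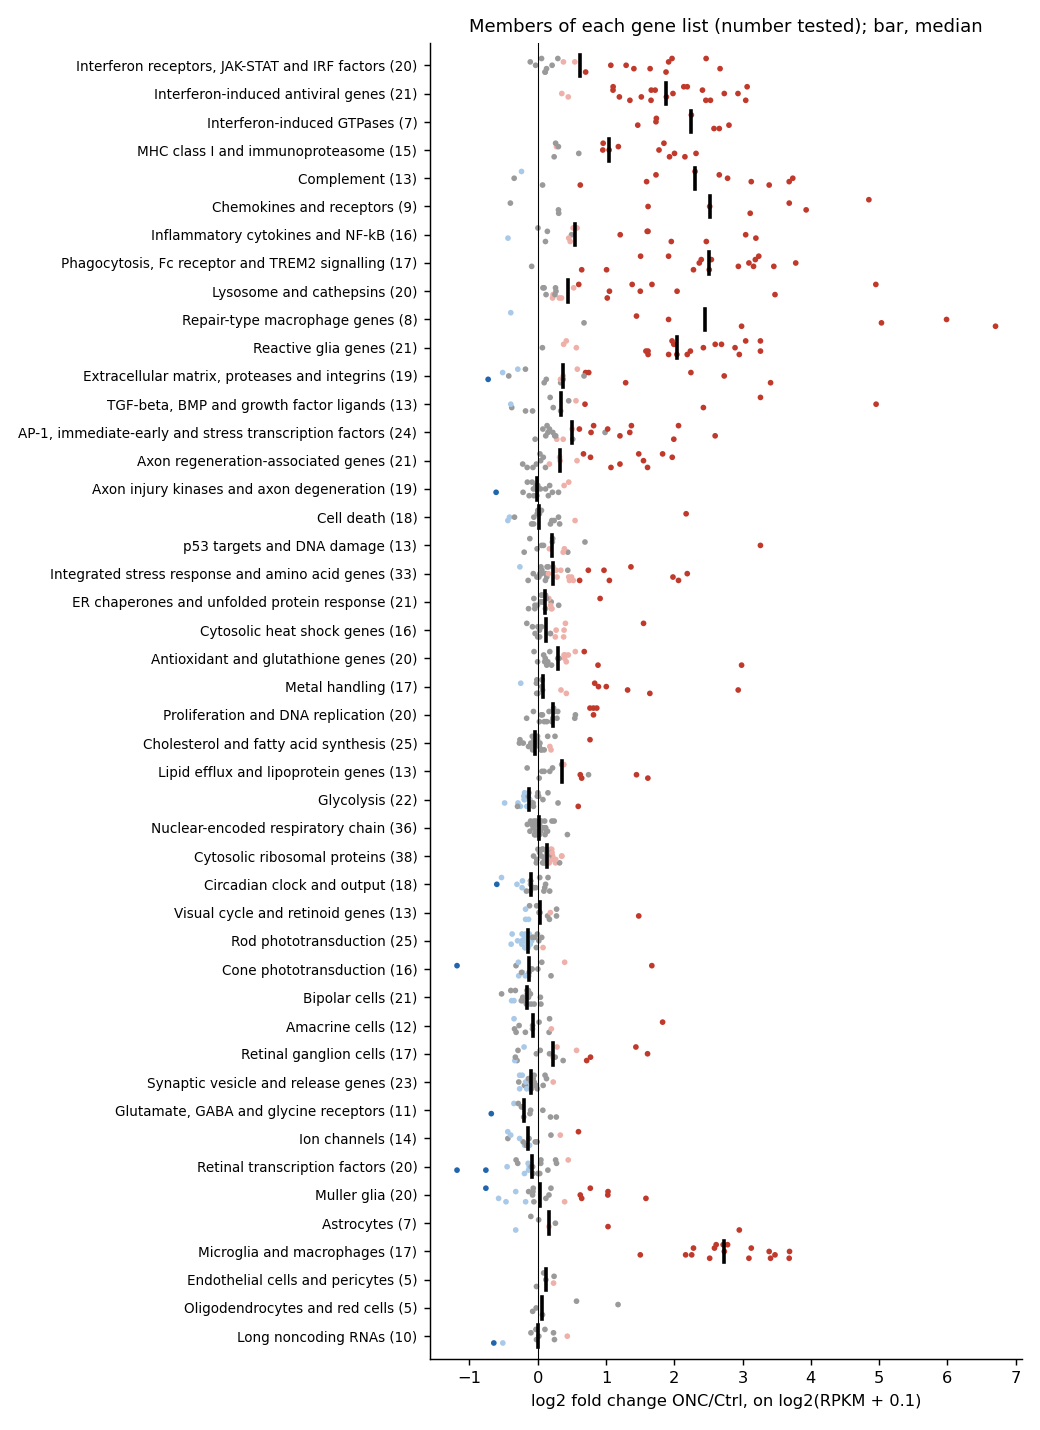
Each point is a tested member of a gene list with at least 5 tested members, at its log2 fold change ONC/Ctrl (red, higher; blue, lower; pale, fold under 1.5; grey, not past the adjusted p). The black bar is the list's median, which lies at 2.73 for microglia and macrophages, 2.25 for interferon-induced GTPases and -0.14 for rod phototransduction, beside 0.02 for all tested genes.

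The 17 tested markers of microglia and macrophages were upregulated by at least 1.5-fold, beside 4.58% of all tested genes, with a median log2 fold change of 2.73 and a highest value of 3.69 for Fcrls, while 5 further markers (Ptprc, Sall1, Adgre1, Spi1 and Cd53) were under the minimum. Of the 17, 11 had a Ctrl mean under 0.5 RPKM and entered the test through their level after crush. Csf1r, the receptor that microglia need to survive, was at 0.776, 0.930 and 0.724 RPKM in Ctrl and 5.90, 5.72 and 5.94 RPKM in ONC (log2 fold change 2.72, standard error 0.11, limma adjusted p = 1.4e-07). Genes that mark resting microglia were among the higher ones, with P2ry12, a purinergic receptor gene, at 0.214 ± 0.0844 RPKM in Ctrl and 1.38 ± 0.253 RPKM in ONC and Tmem119 at 0.0668 ± 0.0259 RPKM in Ctrl and 1.003 ± 0.0951 RPKM in ONC (SD, n = 3 libraries). Cx3cr1, the fractalkine receptor gene, was at 0.772, 0.711 and 0.420 RPKM in Ctrl and 4.31, 3.99 and 3.74 RPKM in ONC (log2 fold change 2.52, standard error 0.18, limma adjusted p = 9.4e-06). No Ctrl library reached the level of any ONC library for these 4 genes.

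Genes for uptake and digestion of debris were also among the upregulated ones. In the list of phagocytosis, Fc receptor and TREM2 signalling genes (28 genes listed, 24 in the table and 17 tested), 16 genes were upregulated (beside 4.58% of all tested genes), with a median log2 fold change of 2.51. Of the 17, 12 had a Ctrl mean under 0.5 RPKM. Fcgr3, an Fc gamma receptor gene, had the largest increase there (0.0851 to 2.22 RPKM, log2 fold change 3.78, standard error 0.43, limma adjusted p = 2.3e-04). Cybb, the catalytic subunit of the NADPH oxidase of phagocytes, went from 0.0789 to 1.81 RPKM and its partner Cyba from 0.620 to 3.51 RPKM. The other tested member was Gas6, a bridging ligand for uptake of dead cells, at 67.6 ± 3.58 RPKM in Ctrl and 63.6 ± 1.97 RPKM in ONC (log2 fold change -0.09, standard error 0.04, limma adjusted p = 0.21). Of 20 tested lysosomal genes, 9 were upregulated by 1.5-fold or more and 14 at any fold (beside 11.7% of all tested genes), with a median of 0.44 and 2 of them under 0.5 RPKM in Ctrl. These are genes of the degrading compartment, and they differed in the size of change. Ctss, the cathepsin of antigen-presenting cells, was at 4.73, 4.05 and 5.32 RPKM in Ctrl and 54.7, 54.8 and 49.6 RPKM in ONC (log2 fold change 3.48, standard error 0.09, limma adjusted p = 6.3e-09), and Lyz2, the lysozyme of phagocytes, was at 0.564, 0.410 and 0.629 RPKM in Ctrl and 19.003, 18.4 and 20.6 RPKM in ONC (log2 fold change 4.95, standard error 0.14, limma adjusted p = 1.3e-08). The broadly used lysosomal gene Lamp1 was at 48.9 ± 1.97 RPKM in Ctrl and 52.2 ± 1.81 RPKM in ONC (limma adjusted p = 0.15), as a member that did not pass the test.

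With predicted, clone, microRNA and snoRNA names left out, the 15 genes of at least 1 RPKM with the largest increases included many known from myeloid cells or inflammation. They were Arg1, Saa3, Spp1, Tgfbi, Lyz2, Cxcl2, Slfn2, Ccl6, Mpeg1, Fcgr3, Itgb2, Apobr, Lilrb4a, Ccl12 and Itgam, with log2 fold changes from 6.70 down to 3.68. Tgfbi, a matrix protein gene induced by TGF-beta, was at 0.0333, 0.0323 and 0.0744 RPKM in Ctrl and 4.26, 4.44 and 4.55 RPKM in ONC (log2 fold change 4.96, standard error 0.21, limma adjusted p = 2.2e-07). Mpeg1, which encodes the pore-forming perforin-2 of macrophages, was at 0.268, 0.220 and 0.253 RPKM in Ctrl and 4.67, 4.65 and 4.87 RPKM in ONC (log2 fold change 3.80, standard error 0.11, limma adjusted p = 1.7e-08). Itgam and Itgb2 encode the 2 chains of complement receptor 3, and they rose from 0.332 to 5.45 RPKM and from 0.175 to 3.55 RPKM. Spp1 shares exon positions with Gm42793 and Apobr with Cln3, so that the reads of these pairs are uncertain. Saa3 had 0 reads in the Ctrl libraries and was at least 118-fold higher in ONC when Ctrl was set to the floor of 3 reads per library.

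Interferon signalling genes were higher in part. Among receptors, JAK kinases, STAT and IRF factors (22 genes listed, 20 in the table and 20 tested), 10 were upregulated by 1.5-fold or more, 12 were higher at any fold and 8 did not pass the test, beside 4.58% and 11.7% of all tested genes past these thresholds. The median log2 fold change was 0.62, and 5 of the 20 had a Ctrl mean under 0.5 RPKM. The receptor subunit gene Ifnar2 went from 0.347 to 1.29 RPKM (log2 fold change 1.65, standard error 0.17, limma adjusted p = 1.2e-04). The other receptor genes tested were Ifngr2, higher by less than 1.5-fold (log2 fold change 0.38), and Ifnar1 (0.11) and Ifngr1 (-0.03), which did not pass the test. The kinase genes Jak1 (log2 fold change 0.06, limma adjusted p = 0.34), Jak2 (0.11, limma adjusted p = 0.24) and Tyk2 (0.13, limma adjusted p = 0.41) did not pass it either. All 3 ONC libraries were above all 3 Ctrl libraries for Ifnar2, Stat3 and Irf8. Stat3, the factor downstream of the IL-6 family, was at 3.53, 3.66 and 3.81 RPKM in Ctrl and 14.6, 14.5 and 14.8 RPKM in ONC (log2 fold change 1.97, standard error 0.05, limma adjusted p = 4.9e-09), and its feedback inhibitor Socs3 rose from 1.68 to 6.49 RPKM. Irf8, a factor of myeloid cells, was at 0.0885, 0.135 and 0.198 RPKM in Ctrl and 1.40, 1.37 and 1.44 RPKM in ONC (log2 fold change 2.67, standard error 0.22, limma adjusted p = 2.4e-05). Irf3, which acts before interferon is made, was at 20.8 ± 0.666 RPKM in Ctrl and 19.3 ± 0.331 RPKM in ONC and did not pass the test (limma adjusted p = 0.085), nor did Irf2 or Irf5.

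The antiviral targets of the pathway were counted separately. Of 38 listed, 30 were in the table and 21 were tested, and 19 of these were upregulated by at least 1.5-fold (beside 4.58% of all tested genes), with the other 2, Trim25 and Adar, higher by less. The median was 1.88, and 9 of the 21 had a Ctrl mean under 0.5 RPKM. Isg15, a ubiquitin-like protein gene, was at 0.295, 0.401 and 0.198 RPKM in Ctrl and 2.99, 3.46 and 3.05 RPKM in ONC (log2 fold change 3.07, standard error 0.30, limma adjusted p = 7.5e-05). Ifit3, of the family that binds viral RNA, was at 4.29, 3.84 and 4.34 RPKM in Ctrl and 28.5, 27.7 and 28.2 RPKM in ONC (log2 fold change 2.73, standard error 0.06, limma adjusted p = 3.3e-09), and its relative Ifit1 was lower in level but rose from 0.172 to 1.44 RPKM. The 7 tested interferon-induced GTPase genes were upregulated, 4 of them with a Ctrl mean under 0.5 RPKM, and Gbp3 was at 2.49, 2.28 and 2.59 RPKM in Ctrl and 16.9, 17.7 and 18.5 RPKM in ONC (log2 fold change 2.80, standard error 0.07, limma adjusted p = 8.7e-09). The groups did not overlap for Isg15, Ifit3, Ifit1 or Gbp3.

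The promoters of 3 of these genes are shown because the genes rose together and their start regions hold letters of the element known to bind interferon-activated factors. Each line gives 120 bases, on the gene's strand, from within the 250 bases before its start in RefSeq, build GRCm38.p6, with matches to the interferon-stimulated response element, searched as GAAANNGAAA on both strands, in capitals. In Isg15 (chr4:156200819-156200938, minus strand) 3 overlapping matches form 1 run and the line ends at the start, the Ifit1 window is chr19:34640765-34640884, plus strand and the Ifit3 window is chr19:34583353-34583472, plus strand. The first match begins 78 bases before the start in Isg15, 104 in Ifit1 and 156 in Ifit3.
Isg15: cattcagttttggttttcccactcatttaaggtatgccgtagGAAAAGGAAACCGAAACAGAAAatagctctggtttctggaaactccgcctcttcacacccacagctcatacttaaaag
Ifit1: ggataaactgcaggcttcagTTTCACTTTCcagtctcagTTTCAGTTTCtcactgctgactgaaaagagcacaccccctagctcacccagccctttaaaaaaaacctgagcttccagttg
Ifit3: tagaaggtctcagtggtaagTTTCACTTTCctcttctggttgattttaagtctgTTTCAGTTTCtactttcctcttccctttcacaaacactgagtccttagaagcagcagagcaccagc
Within 250 bases before the start, the element matched in 16 of 63 promoters (25.4%) of tested genes from the 4 interferon lists (signalling, antiviral, GTPase and MHC class I genes). It matched in 29 of 511 promoters (5.68%) of upregulated genes, in 2 of 80 (2.5%) of downregulated genes and in 978 of 32851 (2.98%) of all promoters in the table. These shares are a description of letters, and several genes have more than 1 start in RefSeq.

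Antigen presentation genes were also among the upregulated ones. In the list of MHC class I and immunoproteasome genes (20 genes listed, 19 in the table and 15 tested), 10 were upregulated (beside 4.58% of all tested genes), with a median of 1.05 and 3 under 0.5 RPKM in Ctrl. The heavy chain gene H2-K1 was at 3.13, 2.65 and 2.96 RPKM in Ctrl and 13.2, 13.3 and 13.4 RPKM in ONC (log2 fold change 2.16, standard error 0.08, limma adjusted p = 6.1e-08), and B2m, the light chain gene shared by class I molecules, was at 1.45, 0.704 and 1.51 RPKM in Ctrl and 7.13, 5.21 and 6.38 RPKM in ONC (log2 fold change 2.32, standard error 0.24, limma adjusted p = 1.1e-04). H2-D1 rose from 7.35 to 29.7 RPKM, and reads of class I genes may be split between near-identical copies. Psme1, of the proteasome activator, rose from 12.7 to 26.4 RPKM, while Psme2, its partner, was at 7.28 ± 1.04 RPKM in Ctrl and 8.95 ± 0.525 RPKM in ONC (limma adjusted p = 0.10). Only 5 of 11 MHC class II and co-stimulation genes were in the table, and the 4 tested (H2-Ab1, H2-Eb1, Cd74 and Ctss) were upregulated, 2 of them from a Ctrl mean under 0.5 RPKM, with H2-Ab1 going from 0.391 to 5.81 RPKM (log2 fold change 3.68, standard error 0.28, limma adjusted p = 1.5e-05). The microglia and macrophage sum rose beside these lists, at 14.4 to 15.6 RPKM in Ctrl and 116 to 121 RPKM in ONC, and its part in the interferon and antigen presentation results was not tested.

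**Figure D4:**
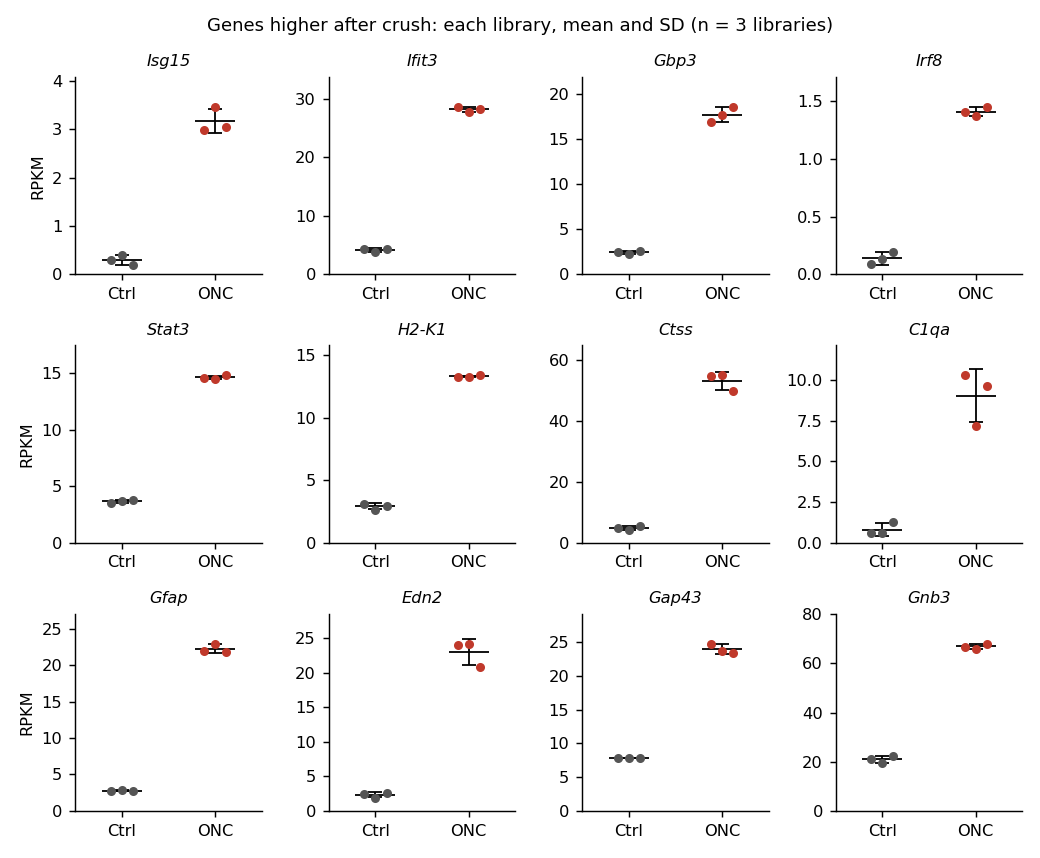
RPKM of 12 upregulated genes in each library (points), with the mean and SD of each group (bars, n = 3 libraries), on axes that start at 0. In each panel the 3 ONC libraries lie above the 3 Ctrl libraries, as for Gbp3 with 2.45 RPKM in Ctrl and 17.7 RPKM in ONC.

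Complement genes were upregulated in 10 of 13 tested members, beside 4.58% of all tested genes, and 7 of the 13 had a Ctrl mean under 0.5 RPKM. The starter protein C1q binds tagged material, and its gene C1qa was at 0.601, 0.583 and 1.25 RPKM in Ctrl and 10.3, 7.20 and 9.67 RPKM in ONC (log2 fold change 3.39, standard error 0.24, limma adjusted p = 9.6e-06) with C1qb going from 0.765 to 7.25 RPKM. C3, the central protein that tags material for uptake, was at 0.139, 0.202 and 0.174 RPKM in Ctrl and 1.55, 1.37 and 1.96 RPKM in ONC (log2 fold change 2.66, standard error 0.19, limma adjusted p = 9.5e-06), and C4b rose to 1.53 RPKM. Clu (clusterin), an inhibitor of the last step, was at 32.4, 31.8 and 27.4 RPKM in Ctrl and 45.2, 45.997 and 49.9 RPKM in ONC (log2 fold change 0.62, standard error 0.07, limma adjusted p = 1.4e-04). Cd59a, an inhibitor that sits on the cell's own membrane, went the other way, from 36.3 to 30.8 RPKM (log2 fold change -0.24, standard error 0.05, limma adjusted p = 0.0077). The groups did not overlap for C1qa, C3, Clu and Cd59a, and the part of the microglia and macrophage sum in the complement, chemokine and cytokine values was not tested either.

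Chemokine genes had low levels. Of 25 chemokine and receptor genes, 12 were in the table, 9 were tested and 6 were upregulated (beside 4.58% of all tested genes), 4 of the 9 having a Ctrl mean under 0.5 RPKM. Cxcl2, which attracts neutrophils, was at 0.0431, 0.0837 and 0 RPKM in Ctrl and 3.81, 3.66 and 4.19 RPKM in ONC (log2 fold change 4.85, standard error 0.23, limma adjusted p = 5.5e-07). The 3 Ctrl libraries held 6 reads of Cxcl2 in all against 554 in ONC. Ccl3 rose from 0.505 to 4.92 RPKM and Ccl6 from 0.153 to 3.78 RPKM, while the transmembrane chemokine gene Cxcl16 was at 3.37 ± 0.240 RPKM in Ctrl and 4.18 ± 0.362 RPKM in ONC (limma adjusted p = 0.11). Among inflammatory cytokines and NF-kB genes (30 genes listed, 27 in the table and 16 tested), 7 were upregulated by 1.5-fold or more, and 6 of those tested had a Ctrl mean under 0.5 RPKM. The interleukin gene Il1b was at 0.0936, 0.204 and 0.104 RPKM in Ctrl and 2.03, 1.90 and 2.08 RPKM in ONC (log2 fold change 3.20, standard error 0.19, limma adjusted p = 3.3e-06), and Il6st, the shared receptor chain of the IL-6 family, was at 5.71, 5.71 and 5.92 RPKM in Ctrl and 13.5, 12.98 and 13.95 RPKM in ONC (log2 fold change 1.21, standard error 0.04, limma adjusted p = 9.6e-08). Both genes were higher in each ONC library than in any Ctrl library. Tnfaip3, an inhibitor of NF-kB, was lower instead, at 65.7, 68.5 and 67.5 RPKM in Ctrl and 50.9, 49.3 and 48.99 RPKM in ONC (log2 fold change -0.44, standard error 0.03, limma adjusted p = 1.2e-05).

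Genes of reactive glia were mostly upregulated. Of 37 listed, 26 were in the table and 21 tested, and 17 were upregulated by at least 1.5-fold (beside 4.58% of all tested genes), with 7 under 0.5 RPKM in Ctrl, a median of 2.04 and a sum of 63.9 to 67.1 RPKM in Ctrl and 228 to 239.9 RPKM in ONC. Gfap, the intermediate filament of astrocytes and reactive Müller glia, was at 2.73, 2.83 and 2.80 RPKM in Ctrl and 21.97, 22.9 and 21.8 RPKM in ONC (log2 fold change 2.95, standard error 0.05, limma adjusted p = 1.6e-09). Nes (nestin) rose from 2.41 to 18.5 RPKM and Vim (vimentin) from 18.97 to 57.1 RPKM. Edn2, an endothelin that photoreceptors release upon damage, was at 2.47, 1.89 and 2.59 RPKM in Ctrl and 23.9, 24.2 and 20.8 RPKM in ONC (log2 fold change 3.26, standard error 0.11, limma adjusted p = 6.0e-08). The groups stood apart for Gfap, Nes, Vim, Edn2 and Fgf2. Fgf2, a survival factor for photoreceptors, rose from 2.62 to 14.5 RPKM, and Gadd45b, a stress gene, from 1.35 to 13.7 RPKM (log2 fold change 3.26, standard error 0.11, limma adjusted p = 4.5e-08). Cryab, the small heat shock protein, was the least certain, at 10.02 ± 1.32 RPKM in Ctrl and 13.01 ± 0.864 RPKM in ONC with an adjusted p of 0.015 by limma that reached 0.056 when single libraries were left out (Ctrl replicate 1, Ctrl replicate 2, ONC replicate 1, ONC replicate 2).

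The identity genes of Müller glia were mixed in direction. Of 20 tested markers, 7 were higher, 6 of them by 1.5-fold or more, and 5 were lower at any fold, beside 11.7% higher and 6.97% lower of all tested genes, with a median of 0.03, or -0.01 after quantile normalization. Glul, glutamine synthetase, which clears glutamate, was at 174, 169 and 175 RPKM in Ctrl and 116, 116 and 116 RPKM in ONC (log2 fold change -0.57, standard error 0.03, limma adjusted p = 9.7e-07). The water channel gene Aqp4 fell from 9.60 to 7.66 RPKM and the carbonic anhydrase gene Car14 from 5.51 to 3.96 RPKM. Higher were Vim, Apoe (172 to 268 RPKM) and Aldh1l1 (2.04 to 4.22 RPKM), while Slc1a3, the glial glutamate transporter, was at 8.56 ± 0.301 RPKM in Ctrl and 9.62 ± 0.642 RPKM in ONC (limma adjusted p = 0.12). Glul shares exon positions with Mir8114 and Teddm2.

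Matrix genes were mixed. Of 19 tested genes for matrix, proteases and integrins, 6 were upregulated and 1 downregulated by 1.5-fold, beside 4.58% and 0.752% of all tested genes, and 4 had a Ctrl mean under 0.5 RPKM. Thbs1 (thrombospondin 1) was at 0.0441, 0.0428 and 0.0164 RPKM in Ctrl and 1.29, 1.23 and 1.46 RPKM in ONC (log2 fold change 3.41, standard error 0.24, limma adjusted p = 7.9e-06) and Fn1 (fibronectin) rose from 0.409 to 3.27 RPKM. The neighbouring collagen genes Col4a1 and Col4a2 moved apart, with Col4a1 going from 1.54 to 3.90 RPKM and Col4a2 from 1.06 to 0.598 RPKM, but they share exon positions with each other and their reads are uncertain. Vegfa, the vascular growth factor, fell from 34.02 to 25.9 RPKM (log2 fold change -0.39, standard error 0.03, limma adjusted p = 1.5e-05).

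Injury transcription factors were upregulated in part, and the immediate-early genes Fos, Jun, Egr1 and Fosb did not pass the test. Of 24 tested AP-1, immediate-early and stress factors, 10 were upregulated by 1.5-fold (beside 4.58% of all tested genes) and 11 did not pass the test, with 2 of the 24 under 0.5 RPKM in Ctrl and a median of 0.51. These factors are switched on by injury or activity in many types of cell. Atf3, a marker of injured neurons, was at 6.52, 6.27 and 5.71 RPKM in Ctrl and 13.997, 13.9 and 15.1 RPKM in ONC (log2 fold change 1.20, standard error 0.06, limma adjusted p = 8.8e-07). Junb rose from 4.81 to 12.6 RPKM and the C/EBP factor genes Cebpb and Cebpd from 0.260 to 1.35 RPKM and from 0.840 to 3.63 RPKM. Fos was at 19.99, 20.6 and 18.7 RPKM in Ctrl and 19.6, 19.3 and 18.7 RPKM in ONC (log2 fold change -0.04, standard error 0.05, limma adjusted p = 0.63) and Jun at 40.8, 39.9 and 46.1 RPKM in Ctrl and 49.4, 48.3 and 44.96 RPKM in ONC (log2 fold change 0.17, standard error 0.07, limma adjusted p = 0.13). The libraries of the 2 groups overlapped for Fos and Jun.

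Regeneration-associated genes were upregulated in part. Of 21 tested, 9 were upregulated by 1.5-fold (beside 4.58% of all tested genes), 13 were higher at any fold and 8 did not pass the test, with a median of 0.33. Gap43, a growth cone protein gene, was at 7.79, 7.78 and 7.78 RPKM in Ctrl and 24.8, 23.6 and 23.4 RPKM in ONC (log2 fold change 1.61, standard error 0.04, limma adjusted p = 4.9e-09). The Ctrl libraries of Gap43 were nearly equal, and the lowest ONC library was well above them. Npy, a neuropeptide gene, rose from 1.33 to 4.72 RPKM, the tubulin gene Tubb6 from 0.620 to 2.70 RPKM and Stmn2 from 0.686 to 1.23 RPKM, while the neuronal tubulin gene Tubb3 was at 4.19 ± 0.566 RPKM in Ctrl and 4.13 ± 0.574 RPKM in ONC (limma adjusted p = 0.94). Of 17 tested RGC markers, 7 were higher and 2 lower at any fold, beside 11.7% and 6.97% of all tested genes, and 8 did not pass the test. The higher ones were Gap43, Prph, Stmn2 and Nrn1 by at least 1.5-fold and the neurofilament gene Nefm (0.28), Sncg (0.23) and Uchl1 (0.57) by smaller log2 fold changes. Lower were Nefh, another neurofilament gene, from 31.1 to 24.6 RPKM (log2 fold change -0.34, standard error 0.04, limma adjusted p = 3.7e-04), and Jam2 (-0.20), while the third neurofilament gene Nefl was at 258 ± 3.13 RPKM in Ctrl and 264 ± 7.70 RPKM in ONC (limma adjusted p = 0.47). The calls of Sncg, Uchl1 and Jam2 were lost when single libraries were left out, with limma adjusted p up to 0.14 for Sncg, 0.067 for Uchl1 and 0.12 for Jam2. Thy1, the sorted antigen, was at 4.74 ± 0.208 RPKM in Ctrl and 5.35 ± 0.161 RPKM in ONC (limma adjusted p = 0.098).

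Among axon injury and cell death genes, 16 of 19 and 14 of 18 tested genes did not pass the test. The cell death list had 2 higher and 2 lower genes at any fold. Over all tested genes, 11.7% were higher and 6.97% lower at any fold, and 4.58% and 0.752% by 1.5-fold or more. The counts of both lists are near those shares. Of 19 tested genes of axon injury signalling, 1 was lower by 1.5-fold and 2 were higher at smaller folds, with a median of -0.01. That gene was Nmnat2, the axon survival enzyme, at 1.01, 1.33 and 1.05 RPKM in Ctrl and 0.692, 0.746 and 0.670 RPKM in ONC (log2 fold change -0.61, standard error 0.15, limma adjusted p = 0.022), and its call was lost when single libraries were left out (Ctrl replicate 2, ONC replicate 1, ONC replicate 3), with an adjusted p up to 0.081. Of 18 tested cell death genes, Casp8, which starts death receptor signalling, was the 1 upregulated past 1.5-fold, at 0.0925, 0.224 and 0.0861 RPKM in Ctrl and 0.887, 0.903 and 0.978 RPKM in ONC (log2 fold change 2.17, standard error 0.22, limma adjusted p = 9.2e-05). The survival gene Mcl1 rose from 18.05 to 26.4 RPKM, and Xiap, an inhibitor of caspases, was lower at 93.8, 94.6 and 90.5 RPKM in Ctrl and 68.4, 68.5 and 68.9 RPKM in ONC (log2 fold change -0.44, standard error 0.03, limma adjusted p = 2.9e-06). The groups stood apart for Casp8, Mcl1, Xiap and Bcl2. Bcl2, a survival gene of the mitochondrial pathway, fell from 3.88 to 2.89 RPKM. Among 13 tested p53 targets, Gadd45b was the 1 gene past a fold of 1.5.

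Stress genes were higher in part, mostly by small amounts. Of 33 tested genes of the integrated stress response, 8 were upregulated by 1.5-fold and 17 at any fold, beside 4.58% and 11.7% of all tested genes, with 1 lower, 15 that did not pass the test and a median of 0.23. Its transcription factor gene Atf4 was at 115, 119 and 114 RPKM in Ctrl and 135, 137 and 135 RPKM in ONC (log2 fold change 0.23, standard error 0.02, limma adjusted p = 1.5e-04), and its target Ddit3 (CHOP) rose from 50.8 to 69.7 RPKM. The changes of Atf4 and Ddit3 were small in fold, and the groups did not overlap, as in 99.6% of the genes higher at any fold. Asns, for asparagine synthesis, rose from 0.926 to 1.90 RPKM and Phgdh, for serine synthesis, from 1.10 to 2.36 RPKM. In the endoplasmic reticulum list, 5 of 21 tested genes were higher, 1 of them past a fold of 1.5, and 16 did not pass the test, and the chaperone gene Hspa5 was at 49.1 ± 0.660 RPKM in Ctrl and 56.4 ± 1.06 RPKM in ONC (log2 fold change 0.20, standard error 0.03, limma adjusted p = 7.9e-04). Among 16 tested cytosolic heat shock genes, 7 were higher, 1 of them by 1.5-fold, and 9 did not pass the test. Bag3, a co-chaperone, went from 1.03 to 3.22 RPKM (log2 fold change 1.55, standard error 0.18, limma adjusted p = 3.0e-04), while the stress-inducible Hspa1b was at 66.8 ± 7.81 RPKM in Ctrl and 64.9 ± 5.95 RPKM in ONC (limma adjusted p = 0.81).

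Hmox1, the heme-degrading enzyme of the oxidative stress response, was the largest change in the antioxidant list, at 1.22, 1.26 and 1.14 RPKM in Ctrl and 10.04, 10.7 and 10.05 RPKM in ONC (log2 fold change 2.99, standard error 0.09, limma adjusted p = 1.5e-08). Srxn1 and Txn1 were the other members past a fold of 1.5, going from 5.89 to 10.9 RPKM and from 1.34 to 2.19 RPKM. Of 20 tested, 9 were higher at any fold, beside 11.7% of all tested genes, and 11 did not pass the test. Among 17 tested metal-handling genes, 6 were upregulated, beside 4.58% of all tested genes. The metallothionein gene Mt2 was at 1.82, 1.69 and 1.69 RPKM in Ctrl and 12.9, 14.7 and 14.3 RPKM in ONC (log2 fold change 2.94, standard error 0.10, limma adjusted p = 3.8e-08) and Mt1 at 0.716, 2.01 and 1.44 RPKM in Ctrl and 4.05, 4.47 and 4.16 RPKM in ONC (log2 fold change 1.64, standard error 0.30, limma adjusted p = 0.0038), both of them genes whose proteins bind zinc. Mt3, the neuronal form, was low at 0.355 ± 0.0697 RPKM in Ctrl and 0.762 ± 0.249 RPKM in ONC, and its call was lost when single libraries were left out (Ctrl replicate 1, Ctrl replicate 2, Ctrl replicate 3, ONC replicate 1, ONC replicate 2), with an adjusted p up to 0.15. Ftl1, a ferritin chain gene, rose from 7.46 to 15.1 RPKM, and the transferrin receptor gene Tfrc fell from 13.3 to 11.1 RPKM (log2 fold change -0.25, standard error 0.05, limma adjusted p = 0.010).

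Genes of glycolysis were lower in part. Of 22 glycolysis genes, 9 were lower at any fold, beside 6.97% of all tested genes, 1 was higher and 12 did not pass the test, with a median of -0.12. The hexokinase genes went opposite ways, with Hk2 at 131, 134 and 137 RPKM in Ctrl and 95.8, 96.4 and 94.6 RPKM in ONC (log2 fold change -0.48, standard error 0.03, limma adjusted p = 2.1e-06) and Hk1 at 134, 134 and 137 RPKM in Ctrl and 202, 206 and 203 RPKM in ONC (log2 fold change 0.59, standard error 0.02, limma adjusted p = 1.1e-07). Hk1 and Hk2 were at nearly equal levels in Ctrl, and in neither did the groups overlap. Pkm, pyruvate kinase, fell from 420.2 to 353 RPKM and Pgk1 from 47.2 to 38.6 RPKM. None of 36 genes of the nuclear-encoded respiratory chain passed the adjusted p in either direction with limma, with a median of 0.02 and Atp5b at 348 ± 30.2 RPKM in Ctrl and 371 ± 9.08 RPKM in ONC. At an unadjusted p under 0.05, 6 of them were higher and 0 lower, where 2493 and 1789 of all 13566 tested genes were. Voom on the recovered whole reads called 3 higher and 0 lower, where it called 1923 and 1291 of all tested genes. Of 38 cytosolic ribosomal protein genes, 16 were higher at any fold, beside 11.7% of all tested genes, with a median of 0.14 and each change under 1.5-fold, and 9 were higher after quantile normalization.

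Lipid and clock genes changed in part. Plin2, which coats lipid droplets, rose from 0.575 to 1.90 RPKM and the fatty acid carrier Fabp5 from 2.97 to 8.20 RPKM, while of 25 tested genes of cholesterol and fatty acid synthesis Pmvk alone passed a fold of 1.5, going from 29.3 to 49.8 RPKM. Of 18 tested clock genes, 5 were lower at any fold, beside 6.97% of all tested genes, and 13 did not pass the test. The call of Clock was lost when single libraries were left out (Ctrl replicate 1, Ctrl replicate 2, ONC replicate 2, ONC replicate 3), with a limma adjusted p up to 0.0785. Rorb was at 24.9, 26.8 and 24.7 RPKM in Ctrl and 18.1, 17.7 and 16.97 RPKM in ONC (log2 fold change -0.53, standard error 0.04, limma adjusted p = 2.1e-05), and Ciart, a repressor within the clock, fell from 4.21 to 2.77 RPKM. The hours at which the retinas of each group were taken are not given in the sources used here. Of 20 tested genes of proliferation, 4 were upregulated, beside 4.58% of all tested genes, of which Ccnd1 (cyclin D1) went from 1.83 to 3.29 RPKM. Among the 4, the calls of Mcm5 and Gins1 were lost when single libraries were left out, with limma adjusted p up to 0.078 and 0.105. The division markers Mki67 and Top2a, under the minimum of the test, were at 0.0467 ± 0.0284 RPKM in Ctrl and 0.787 ± 0.132 RPKM in ONC and at 0.0143 ± 0.0171 RPKM in Ctrl and 0.481 ± 0.0978 RPKM in ONC.

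Of 25 pattern recognition genes 13 were in the table, with 4 of them tested and 3 upregulated by 1.5-fold or more (beside 4.58% of all tested genes). Cd14, the co-receptor for bacterial lipid, went from 0.0373 to 1.33 RPKM and the adaptor gene Myd88 from 1.41 to 2.60 RPKM. Of 8 tested genes of repair-type macrophages 6 were upregulated (beside 4.58% of all tested genes) and 5 had a Ctrl mean under 0.5 RPKM, with the arginine-degrading enzyme gene Arg1, Saa3 and Spp1 as the leading ones. The next 3 lists were counted at any fold, beside 11.7% higher and 6.97% lower of all tested genes. Growth factor and TGF-beta genes had 5 higher and 1 lower of 13 tested, among them Id2 (0.848 to 1.42 RPKM), a target of BMP signals. Lipid efflux genes had 5 higher and 0 lower of 13 tested. Visual cycle genes had 2 higher and 3 lower of 13 tested, with Rlbp1, the retinal carrier of Müller glia, going from 125 to 111 RPKM. Of the crystallin list, 2 of 16 genes were in the table, and Crym rose from 5.55 to 11.4 RPKM.

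Markers of other retinal and vascular cell types were counted at any fold, beside 11.7% higher and 6.97% lower of all tested genes. The astrocyte list had 3 higher and 1 lower of 7 tested, with Gfap leading it. Amacrine cell markers had 2 higher and 1 lower of 12 tested, of which Slc6a9, the glycine transporter, went from 23.1 to 18.2 RPKM. Horizontal cell markers had 0 higher and 1 lower of 4 tested. Endothelial and pericyte markers had 1 higher and 0 lower of 5 tested, and the gene was the VEGF receptor Kdr (10.7 to 12.5 RPKM). Pigment epithelium, ciliary body and fibroblast markers had 1 higher and 0 lower of 2 tested. Of 5 tested oligodendrocyte and red cell markers none passed limma's adjusted p, 1 higher and 0 lower had an unadjusted p under 0.05, and voom called 1 higher and 0 lower. Of all 13566 tested genes, 2493 higher and 1789 lower had an unadjusted p under 0.05, and voom called 1923 higher and 1291 lower.

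Most rod genes were lower by small amounts. Of 25 rod phototransduction genes, all of them tested, 17 were lower and 1 was higher with an adjusted p under 0.05, each by less than 1.5-fold, and 7 did not pass the test, beside 6.97% lower of all tested genes, with a median log2 fold change of -0.14 beside 0.02 for all tested genes. Gnat1 was at 11303, 11199 and 12062 RPKM in Ctrl and 9879, 9934 and 9594 RPKM in ONC (log2 fold change -0.23, standard error 0.03, limma adjusted p = 9.1e-04). Pdc, phosducin, which binds transducin subunits, was at 2016, 2047 and 1828 RPKM in Ctrl and 1493, 1484 and 1563 RPKM in ONC (log2 fold change -0.37, standard error 0.04, limma adjusted p = 2.2e-04). Both genes were lower in each ONC library than in any Ctrl library. Slc24a1, the rod ion exchanger, was at 2318 ± 95.2 RPKM in Ctrl and 2309 ± 61.7 RPKM in ONC (limma adjusted p = 0.95), and Cnga1, a subunit of the rod channel, at 463 ± 21.1 RPKM in Ctrl and 468 ± 5.37 RPKM in ONC (limma adjusted p = 0.79). The higher gene was Sag (arrestin), at 624 ± 6.69 RPKM in Ctrl and 658 ± 8.08 RPKM in ONC, whose adjusted p of 0.042 by limma reached 0.13 when single libraries were left out, which ended the call for each of the 6 libraries. The calls of the lower genes Pde6g, Rom1 and Nrl were also lost when single libraries were left out, with limma adjusted p up to 0.056, 0.083 and 0.117. Under quantile normalization Gnat1 has the same rank in each library and so a difference of 0, and the list's median was -0.13.

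Gucy2f, a guanylate cyclase gene of photoreceptors, had the largest decrease in the list, from 24.6 to 18.8 RPKM (log2 fold change -0.39, standard error 0.03, limma adjusted p = 4.0e-05). Its promoter is shown for letters that the photoreceptor factor CRX is known to bind. The level of Crx itself was 301, 310.4 and 306 RPKM in Ctrl and 265, 271 and 266 RPKM in ONC (log2 fold change -0.19, standard error 0.02, limma adjusted p = 2.4e-04). The window of 120 bases before the start is chrX:142196937-142197056, minus strand of RefSeq GRCm38.p6, and the capitals mark TAATCC on either strand.
Gucy2f: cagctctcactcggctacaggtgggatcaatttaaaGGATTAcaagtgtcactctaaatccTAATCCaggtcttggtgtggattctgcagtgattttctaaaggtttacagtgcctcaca
TAATCC matched within 250 bases before the start in 8 of 18 promoters (44.4%) of rod genes, and in 2054 of 32851 (6.25%) of all promoters. Of the 8 genes with a match, Gucy2f and Rpgrip1 were lower, Sag was higher and 5 (Cnga1, Cngb1, Gngt1, Guca1a and Gucy2e) did not pass the test. Of the 10 without a match, 8 were lower, among them Pdc, Prph2 and Pde6b.

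Cone genes changed in both directions. Of 16 tested cone genes, 6 were lower and 2 higher at any fold, beside 6.97% and 11.7% of all tested genes, and 8 did not pass the test. The calls of Gngt2, a higher gene, and of the lower genes Opn1sw and Pex5l were lost when single libraries were left out. Their limma adjusted p reached 0.074, 0.053 and 0.055. Gnb3, the transducin beta subunit of cones and bipolar cells, was at 21.1, 19.4 and 22.4 RPKM in Ctrl and 66.7, 66.01 and 68.02 RPKM in ONC (log2 fold change 1.67, standard error 0.05, limma adjusted p = 1.5e-08), the largest fold upwards among the tested rod and cone genes. Rxrg, a nuclear receptor of cones, went the other way, at 1.75, 1.30 and 1.21 RPKM in Ctrl and 0.587, 0.720 and 0.417 RPKM in ONC (log2 fold change -1.18, standard error 0.19, limma adjusted p = 0.0022). The groups stood apart for Gnb3, Rxrg, Arr3 and Pde6c. Arr3 (cone arrestin) fell from 40.6 to 33.3 RPKM and Pde6c from 27.2 to 22.4 RPKM, while the pigment gene Opn1mw was at 4.77 ± 0.552 RPKM in Ctrl and 4.35 ± 0.242 RPKM in ONC (limma adjusted p = 0.38).

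Bipolar cell markers and synaptic genes were lower in part. Of 21 tested bipolar cell markers, 3 were lower, beside 6.97% of all tested genes, and 18 did not pass the test, with a median of -0.15. Of 23 tested genes of synaptic vesicles and release, 6 were lower and 1 was higher at any fold, and 16 did not pass the test. Under quantile normalization 7 bipolar and 11 synaptic genes were lower, where 1447 of all 13566 tested genes were. The calls of the bipolar markers Grm6 and Otx2 were lost when single libraries were left out, with limma adjusted p up to 0.105 and 0.126. So were those of the synaptic genes Bsn, Cplx1, Stx3 and Unc13a, with limma adjusted p up to 0.105, 0.127, 0.058 and 0.098. Rims2, of the release site, fell from 103 to 85.5 RPKM and the calcium channel gene Cacna1f of photoreceptor terminals from 74.3 to 61.8 RPKM. Syt1, a calcium sensor for release, rose from 83.3 to 97.5 RPKM. These 3 genes act where neurons release transmitter. Gria2, a subunit of the AMPA glutamate receptor that limits calcium entry, was at 1.90, 1.81 and 1.77 RPKM in Ctrl and 0.999, 1.02 and 1.30 RPKM in ONC (log2 fold change -0.68, standard error 0.12, limma adjusted p = 0.0036), the 1 receptor gene of 11 tested past a fold of 1.5. The potassium channel gene Kcnj14 was at 190.4, 186 and 191 RPKM in Ctrl and 142, 138 and 139 RPKM in ONC (log2 fold change -0.44, standard error 0.02, limma adjusted p = 2.0e-06).

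Retinal transcription factors were lower in 7 of 20 tested genes, beside 6.97% of all tested genes, and 12 did not pass the test. Of the lower genes, Nrl, Nr2e3, Otx2 and Rxrg are also counted in the rod, bipolar or cone lists above. The calls of Nrl, Otx2 and Hes5 were lost when single libraries were left out, with limma adjusted p up to 0.117, 0.126 and 0.063. Neurod1, a factor of photoreceptors and amacrine cells, was the 1 higher gene, at 363, 363 and 331 RPKM in Ctrl and 476, 462 and 503 RPKM in ONC (log2 fold change 0.45, standard error 0.05, limma adjusted p = 2.3e-04). Hes1, a target of Notch in glia, was at 2.91, 3.44 and 2.74 RPKM in Ctrl and 2.56, 1.26 and 1.62 RPKM in ONC (log2 fold change -0.76, standard error 0.21, limma adjusted p = 0.035). The Hes1 libraries differed widely within ONC, and leaving out single libraries ended its call (Ctrl replicate 1, Ctrl replicate 2, Ctrl replicate 3, ONC replicate 2, ONC replicate 3), with an adjusted p up to 0.11.

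**Figure D5:**
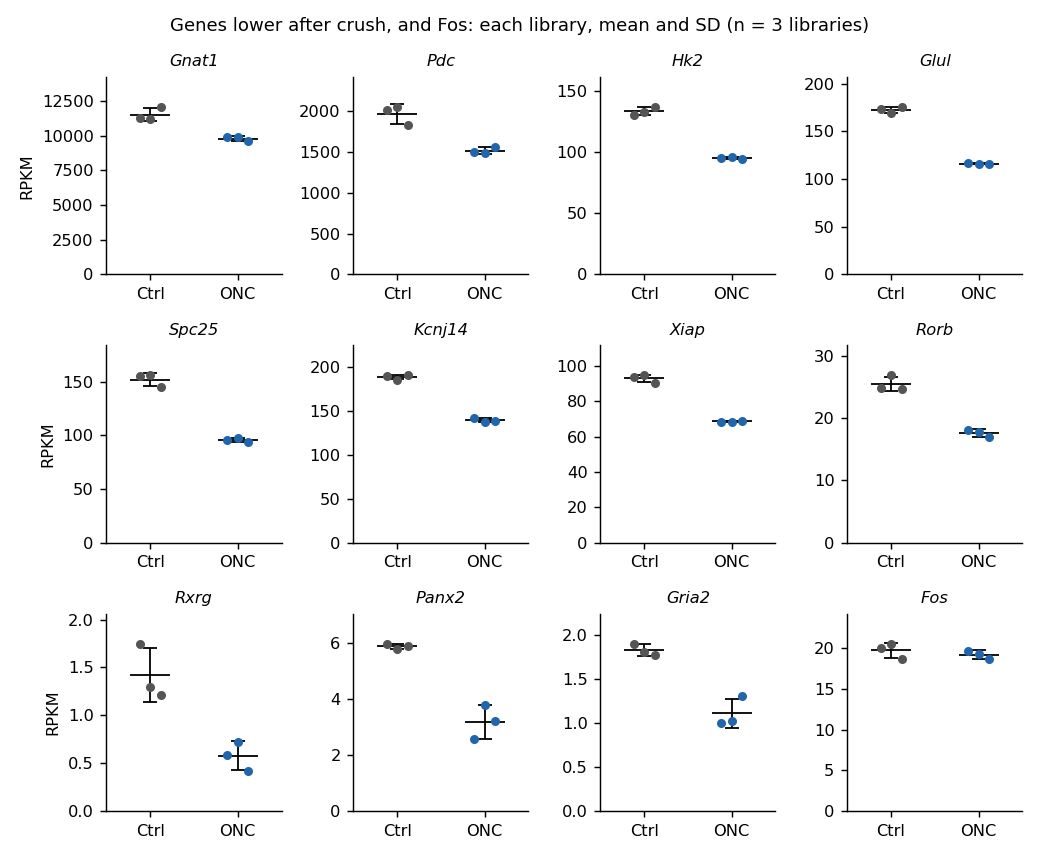
RPKM of 11 genes lower after crush and of Fos in each library (points), with the mean and SD of each group (bars, n = 3 libraries), on axes that start at 0. The 11 lower genes show no overlap between groups, with Glul at 173 RPKM in Ctrl and 116 RPKM in ONC, and the Fos libraries of the groups overlap.

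Among the 102 genes lower by 1.5-fold or more, 79 had a mean of 1 RPKM or more and groups that did not overlap, and 39 of these 79 had predicted, clone, microRNA or snoRNA names, among them Mir770 (log2 fold change -0.99). The 15 others with the largest decreases were Cyr61, Dleu7, Hist2h4, Ctf1, Panx2, Gfy, Tmem151b, Dlgap3, Als2cr11b, Eps8l3, Myo1a, Hes1, RP23-292G1.5, Col4a2 and Ctxn1, with log2 fold changes from -0.95 to -0.71. Panx2, a pannexin channel gene of neurons, was at 5.99, 5.78 and 5.90 RPKM in Ctrl and 2.56, 3.79 and 3.21 RPKM in ONC (log2 fold change -0.88, standard error 0.12, limma adjusted p = 7.1e-04). Dlgap3, of the scaffold behind glutamate receptors, was at 4.28, 4.03 and 4.92 RPKM in Ctrl and 2.24, 2.55 and 2.56 RPKM in ONC (log2 fold change -0.82, standard error 0.10, limma adjusted p = 4.2e-04). Both genes are mostly known from neurons. Ctxn1 (cortexin 1), a neuronal membrane protein gene, fell from 6.52 to 3.97 RPKM and Ctf1, a cytokine of the IL-6 family, from 1.36 to 0.668 RPKM.

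The calls of 5 of these 15 genes were lost when single libraries were left out. The adjusted p reached 0.065 for Cyr61 (Ctrl replicate 1, ONC replicate 1, ONC replicate 3) and 0.069 for Dleu7 (Ctrl replicate 2, ONC replicate 2, ONC replicate 3). It reached 0.063 for Ctf1 (Ctrl replicate 1, Ctrl replicate 2, ONC replicate 1) and 0.062 for Eps8l3 (Ctrl replicate 1, Ctrl replicate 2, ONC replicate 1, ONC replicate 2), with Hes1 as above. These genes are the less certain ones of the ranking. Cyr61 encodes a matrix protein induced by the Hippo pathway factors and was at 3.36, 2.44 and 2.52 RPKM in Ctrl and 0.991, 2.03 and 1.27 RPKM in ONC.

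Of the 102, Spc25 had the most expression, at 156, 156 and 145 RPKM in Ctrl and 95.9, 97.5 and 93.98 RPKM in ONC (log2 fold change -0.67, standard error 0.03, limma adjusted p = 9.2e-07), as a gene known for the kinetochore. It and the next genes of this paragraph other than Snhg11 and Meg3 were chosen after their values were seen. Pvalb, a calcium-binding protein gene of amacrine cells and RGCs, had the largest fold, at 0.771, 1.37 and 1.34 RPKM in Ctrl and 0.293, 0.418 and 0.251 RPKM in ONC (log2 fold change -1.56, standard error 0.37, limma adjusted p = 0.016), and its adjusted p reached 0.059 without single libraries (Ctrl replicate 2, Ctrl replicate 3, ONC replicate 1, ONC replicate 3). Genes used by neurons were among the rest, with the repressor gene Scrt1 at 8.11 ± 0.196 RPKM in Ctrl and 5.05 ± 0.507 RPKM in ONC, the neuronal factor Myt1l at 2.21 ± 0.322 RPKM in Ctrl and 1.38 ± 0.134 RPKM in ONC and Jph3, which ties the neuronal membrane to the endoplasmic reticulum, at 1.58 ± 0.0470 RPKM in Ctrl and 0.957 ± 0.189 RPKM in ONC. The groups did not overlap for Pvalb, Scrt1, Myt1l and Jph3, as for each of the 102 genes. The noncoding RNA gene Snhg11 of neurons was at 5.12, 5.14 and 4.54 RPKM in Ctrl and 3.11, 3.16 and 3.09 RPKM in ONC (log2 fold change -0.64, standard error 0.07, limma adjusted p = 1.2e-04). Meg3, a maternally expressed noncoding RNA, fell from 16.1 to 11.2 RPKM, and Mir770, which lies within it, from 58.996 to 29.6 RPKM. Of 16 tested histone genes named Hist, 5 were lower at any fold, such as Hist1h1c (80.6 to 54.7 RPKM), and 1 was higher, beside 6.97% and 11.7% of all tested genes. Among these, the call of Hist1h2ae was lost when single libraries were left out (Ctrl replicate 1, Ctrl replicate 2, ONC replicate 1, ONC replicate 3), with a limma adjusted p up to 0.149.

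By amount and not by fold, the order changed. The 10 largest decreases in mean RPKM included those of Gnat1, Pdc, Prph2, Pde6a, Reep6, Gnb1, Gm13027, Pde6b and Fam3c, with differences from -1719 RPKM for Gnat1 to -93.4 RPKM for Fam3c. Most of these are genes of rods. Fam3c, a secreted protein gene, was at 315, 319 and 316 RPKM in Ctrl and 221, 225 and 224 RPKM in ONC (log2 fold change -0.50, standard error 0.02, limma adjusted p = 2.7e-07). The 10 largest increases were those of Gm10925, mt-Tm, Ubb, mt-Ty, mt-Tc, Gm10800, mt-Tn, Gm27597, mt-Ta and Gm1821. Of these, 5 are mitochondrial tRNA genes. Among 19 such genes, 12 were higher at any fold and 4 by at least 1.5-fold, beside 11.7% and 4.58% of all tested genes, with a median of 0.40. The 13 mitochondrial mRNA genes had a median of 0.07, and 2 of them were higher at any fold, near the 11.7% of all tested genes. These were mt-Nd3 and mt-Atp6, and the call of mt-Atp6 was lost without single libraries (Ctrl replicate 1, ONC replicate 1, ONC replicate 2, with adjusted p up to 0.071 by limma). The tRNA genes took 0.0780% to 0.0882% of the reads in Ctrl and 0.103% to 0.107% in ONC, although tRNAs are not messenger RNAs, for which the library kit is made. Gm10800, a predicted gene at positions 98666547 to 98667301 of chromosome 2 in build GRCm38, was at 70.97, 70.9 and 68.7 RPKM in Ctrl and 349, 365 and 325 RPKM in ONC (log2 fold change 2.30, standard error 0.05, limma adjusted p = 2.4e-09). The calls of Gm10925, mt-Tm, Ubb and Gm27597 were lost under other settings, among them those without ONC replicate 3 for mt-Tm (adjusted p = 0.067 by limma), without Ctrl replicate 1, ONC replicate 1, ONC replicate 2, ONC replicate 3 for Gm10925 (up to 0.14), without Ctrl replicate 1, Ctrl replicate 2, ONC replicate 1, ONC replicate 2 for Ubb (up to 0.075), and quantile normalization for Gm27597.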

How the data were processed

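RNA of 9 libraries was sequenced, of which the 3 Ctrl and 3 ONC libraries are compared here. The deposited values are RPKM, which the authors computed from the reads of each library after read trimming with Trimmomatic 0.36, per the submitters' processing notes, with builds GRCm38 and mm10 named there. The study's methods name STAR for mapping and a count model for its tests. The program that counted reads, the annotation, the use of strand and the collapsing of molecular identifiers are not given in the sources used here. The columns with the authors' fold changes, p-values and false discovery rates were not used.

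Values were compared as log2(RPKM + 0.1) with limma 3.58.1 in R 4.3.3, with a trend of the spread on the level, 1 coefficient for each of the 3 groups and Benjamini-Hochberg adjustment over 13566 genes whose 9-library mean reached 0.5 RPKM. Thresholds were an adjusted p under 0.05 and, where stated, a fold of at least 1.5, as in the study. The fit was tested on simulated data. Standard errors are those of the log2 fold change, and other errors are SD over 3 libraries. With 3 libraries a group no outlier was sought. Other tables were made with Python 3.11.15, pandas 2.3.3 and numpy 2.4.6.

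Whole reads were worked out from the RPKM values and exon lengths (within 0.1 read for 100% of the values of each library), which gave the library totals, the floor of 3 reads and the input of voom. Alternatives were quantile normalization, median ratio scaling, no filter or 1 RPKM as the minimum, a pseudocount of 1 RPKM, a fit of the 6 libraries, a replicate block, leaving out each library, a test against a fold of 1.5 (treat) and voom.

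Genes with values were the 15 higher and 15 lower with the largest fold (mean from 1 RPKM, groups without overlap, predicted, clone, microRNA and snoRNA names left out), the 10 higher and 10 lower with the largest difference in RPKM, the leading called and the most abundant members of 53 lists (1168 different symbols), and markers of retinal cell types. The members and lists were chosen with earlier results of these data known. Some genes of the lists are not reported here. Promoters were the 250 bases before each start in RefSeq GRCm38.p6, for 9160 of the tested genes, matched by symbol.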

Additional observations from a re-analysis of the deposited data

How the results depend on the processing

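In place of 622 upregulated genes, 943 were called without a filter on low values and 297 in a test against a fold of 1.5. In place of 102 downregulated genes, quantile normalization called 193 and a pseudocount of 1 RPKM called 31, and the treat test of limma against a fold of 1.5 called 0, with 20 lower at an unadjusted p under 0.05. At any fold, quantile normalization called 1447 lower genes in place of 946. The treat test does not apply to the counts at any fold. Leaving out 1 library in turn gave 581 to 608 upregulated and 90 to 116 downregulated genes, and 1258 to 1492 higher and 667 to 767 lower genes at any fold. The other alternatives stayed within 1.5 times these counts. With voom on whole reads the counts were 659 and 129.

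With the replicate block, 608 genes were upregulated and 104 downregulated, and 1439 were higher and 785 lower at any fold. The same-numbered libraries of Ctrl and ONC did not deviate together, with correlations from -0.062 to -0.003, and pairs of different number had correlations from -0.027 to 0.051. These values cannot tell if libraries of the same number were handled together.

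Of 356 genes named by the rule or the lists and called, 297 kept their call under each alternative other than the treat test, 59 lost it under at least 1 of them and 0 changed direction. Leaving out 1 library ended 25 to 41 of these calls, quantile normalization 19 and the fit of the 6 libraries 21. The median log2 fold change of all tested genes was 0.02, and -0.03 after quantile normalization. The causes of these differences were not tested. At this depth, genes with a mean under 1 RPKM rest on few reads, and they held 170 of the upregulated and 23 of the downregulated calls.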

Other observations

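Some families of the cytoskeleton and of calcium-dependent membrane proteins were counted by symbol. These groups and genes were taken after their values were seen, and the groups are described by counts of symbols and without a test. Of 7 tested genes in the S100 family, small calcium-binding proteins, 6 were upregulated by at least 1.5-fold, beside 4.58% of all tested genes, with a median log2 fold change of 1.98. S100a11 was at 1.05, 1.19 and 1.36 RPKM in Ctrl and 6.81, 4.43 and 6.73 RPKM in ONC and S100a16 at 7.59, 7.89 and 8.41 RPKM in Ctrl and 16.7, 15.9 and 15.7 RPKM in ONC. Of 7 tested annexin genes, whose proteins bind membranes in the presence of calcium, 4 were upregulated by 1.5-fold or more, beside 4.58% of all tested genes, with Anxa5 going from 9.11 to 14.97 RPKM. Of 11 tested tubulin genes, 4 were upregulated by 1.5-fold and 8 were higher at any fold, beside 4.58% and 11.7% of all tested genes. Tubb2b was at 3.37, 3.49 and 3.94 RPKM in Ctrl and 11.2, 11.6 and 11.4 RPKM in ONC. The 1 tubulin gene lower at any fold was Tubb4a (4.52 to 3.63 RPKM), beside 6.97% of all tested genes. Map1b, a microtubule-associated protein gene of growing axons, was at 175, 175 and 173 RPKM in Ctrl and 281, 278 and 279 RPKM in ONC (log2 fold change 0.68, standard error 0.02, limma adjusted p = 2.1e-08). Myo10, the motor of filopodia, rose from 9.79 to 35.2 RPKM and Msn, which links actin to the membrane, from 7.89 to 22.3 RPKM. Of 12 tested Parp genes, which encode ADP-ribosyltransferases, 5 were upregulated, beside 4.58% of all tested genes. These were Parp14, Parp12, Parp9, Parp3 and Parp10, several of them known as interferon targets.

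Not all photoreceptor genes were lower, and the following were also taken after their values were seen. Samd7, a repressor partner in rods, was at 56.1, 54.96 and 56.7 RPKM in Ctrl and 100.8, 98.4 and 100.03 RPKM in ONC (log2 fold change 0.83, standard error 0.02, limma adjusted p = 1.7e-08). Impg2, of the matrix between photoreceptors, rose from 47.6 to 72.5 RPKM and Arl6, of the cilium, from 41.8 to 84.7 RPKM. Agtpbp1, a tubulin-modifying enzyme whose loss harms photoreceptors, was at 22.6, 21.7 and 21.98 RPKM in Ctrl and 57.7, 59.1 and 57.6 RPKM in ONC (log2 fold change 1.39, standard error 0.03, limma adjusted p = 2.4e-09). Igsf11, an adhesion protein gene, rose from 29.2 to 67.8 RPKM. In each of Samd7, Impg2, Arl6, Agtpbp1 and Igsf11 the lowest ONC library was above the highest Ctrl library. Lad1, an anchoring filament protein gene of epithelia, had one of the larger increases, at 1.71, 2.21 and 1.92 RPKM in Ctrl and 22.5, 22.6 and 21.8 RPKM in ONC (log2 fold change 3.46, standard error 0.09, limma adjusted p = 9.3e-09).

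The share of reads from the 25 rod genes went from 12.96% to 13.02% in Ctrl to 11.5% to 11.7% in ONC. The share from the 22 microglia and macrophage markers went from 0.0031% to 0.0033% in Ctrl to 0.0252% to 0.0264% in ONC.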
